A study of Mus musculus with 6 samples.

Results

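The subject is 9 genes, Snrnp70, Rnpc3, Ccnl1, Ccnl2, Pnisr, Nktr, Leng8, Ddx26b and Wsb1, of 24411 genes counted in mouse tissue at postnatal day 18. They were chosen by their measured values, as clear falls in read counts in samples without a large enhancer of Atoh7 against WT, among genes with nuclear or detained-intron transcripts. Their difference between the groups is therefore given as a description, with no test. All 9 passed the filter on low counts and are among the 15846 genes tested. Bulk RNA was sequenced from 3 Atoh7 Large Enhancer KO samples (enhancer KO) and 3 WT samples, all of age P18, and no further allele, strain or treatment is given for either group. The series design names the cerebellum, while the tissue field reads retina. Nothing in the labels says that the samples came from separate animals. The p-values given for other genes therefore set the group difference against the spread between these samples.

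Most introns are cut out while RNA is still being made, but some transcripts keep 1 or a few introns, stay in the nucleus and are spliced later or degraded. Such introns are called detained, and they are frequent in genes for splicing factors and their regulators, whose own protein levels they help to set. A count of reads per gene does not separate these nuclear transcripts from spliced messenger RNA of the same gene. Most of the 9 genes encode proteins of RNA synthesis or processing, or resemble such proteins in sequence, while Wsb1 encodes the substrate receptor of a ubiquitin ligase, so the group's working name does not cover its function.

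The targeted gene, Atoh7, had 0.744, 0.858 and 0.695 CPM in enhancer KO replicates 1 to 3, against 1.94, 2.05 and 2.13 CPM in WT replicates 1 to 3. CPM are counts scaled to a common library size, by TMM. Reads in genes numbered 36849747 to 40858310 per enhancer KO library and 22812075 to 33076111 per WT library. Libraries stood apart in several ways. Reads outside annotated exons made up 17.4% ± 0.735 of all reads in enhancer KO and 32.4% ± 1.56 in WT (SD, n = 3 each), a ratio of -0.90 on the log2 scale. In WT replicate 2, 20.4% of reads were unmapped, against 7.79% to 8.32% in the other libraries. Rn45s, the ribosomal RNA precursor, took 1.51% to 1.68% of gene reads in enhancer KO libraries, against 12.9% in WT replicate 2 and at most 3.02% in the other WT libraries, and its part in the results was not tested. WT replicate 1 was the only library with Xist reads in number, at 1054 CPM against 0.743 to 1.37 CPM in the others, and it had no read of the Y-linked gene Ddx3y. The summed level of 7 granule neuron markers was 1330 to 1697 CPM in enhancer KO and 2202 to 2702 CPM in WT, and all 7 were called lower. The summed level of 6 Purkinje cell markers was 5413 to 5818 CPM in enhancer KO and 3885 to 4689 CPM in WT, with 4 called higher. The 8 photoreceptor markers summed to 1.04 to 1.33 CPM in enhancer KO and 1.42 to 2.07 CPM in WT, with Crx, a photoreceptor transcription factor, at 0 in all WT libraries. The markers of oligodendrocytes, astroglia, microglia, endothelium, choroid plexus and midbrain had 0 to 4 genes called of 5 to 7 each. The most were 4 of 5 endothelial genes, all lower, and 3 of 5 microglial genes were called higher. Beside these marker counts, 17.9% of all genes tested were called lower and 13.4% higher (edgeR adjusted p under 0.05). No marker of any list was at 0 in all libraries. The part of these marker differences in the results was not tested. In bulk tissue, fewer cells of a type and less RNA per cell cannot be told apart.

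Annotated introns that can be kept show where in these genes unspliced sequence could be counted, if the annotation used for counting calls them exonic. That annotation is not given in the sources used here. In the GENCODE M21 annotation of the GRCm38 (mm10) genome, 7 of the 9 genes have at least 1 transcript classed as retained intron, with 9 for Snrnp70, 8 each for Ccnl1 and Nktr, 3 each for Ccnl2 and Leng8, 2 for Wsb1 and 1 for Rnpc3, and none for Pnisr and Ddx26b. Of all 14841 protein-coding genes tested, 55.7% have one. In 5 of the 9 genes such a transcript spans a whole intron of the main coding transcript, 11 introns in all, against 23.1% of protein-coding genes tested with at least 1. Nothing is read from these shares, since the 9 were chosen among genes with nuclear or detained-intron transcripts. They also have more annotated transcripts, with a median of 10 against 5. The 11 introns are 81 to 2341 bases long. A set of 3 short ones, 1 each from Snrnp70, Ccnl1 and Leng8, is printed whole from the GENCODE transcript sequences, 5′ to 3′, with 10 exon bases on each side, because a read inside them counts toward the gene only where the annotation used for counting calls them exonic. Capitals mark the first and last 2 bases of the intron.
Snrnp70 intron 3, chr7:45392134-45392262, minus strand: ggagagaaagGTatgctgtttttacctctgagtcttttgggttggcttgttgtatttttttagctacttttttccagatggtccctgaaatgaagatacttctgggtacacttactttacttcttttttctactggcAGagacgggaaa
Ccnl1 intron 9, chr3:65947790-65947896, minus strand: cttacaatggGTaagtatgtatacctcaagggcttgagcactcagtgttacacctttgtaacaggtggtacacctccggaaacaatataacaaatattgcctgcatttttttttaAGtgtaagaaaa
Leng8 intron 12, chr7:4144814-4144894, plus strand: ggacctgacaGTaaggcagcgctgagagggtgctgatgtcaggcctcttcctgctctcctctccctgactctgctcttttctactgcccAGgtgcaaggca
The junction at the 5′ end of each intron is where the U1 particle, which holds the Snrnp70 protein, pairs with the transcript. The 3 exon bases (lower case) and first 6 intron bases (capitals) of all 11 introns follow.
Snrnp70 intron 3: aagGTATGC
Ccnl2 intron 5: atgGTGAGT
Ccnl1 intron 9: tggGTAAGT
Ccnl1 intron 8: catGTGAGA
Ccnl1 intron 5: ctgGTAAGT
Ccnl1 intron 4: aagGTGAGT
Leng8 intron 7: cagGTGACT
Leng8 intron 11: gctGTAAGT
Leng8 intron 12: acaGTAAGG
Nktr intron 3: cagGTGAGT
Nktr intron 4: aagGTAGAG
Against the letters CAGGTAAGT, complementary to the 5′ end of U1 RNA, these junctions matched at 5 to 8 of 9 positions. All 11 introns begin with GT and end with AG. Which of these introns were kept in the tissue cannot be read from gene counts.

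Snrnp70 (chromosome 7, 45376453 to 45395742, minus strand) encodes U1-70K, the protein of the U1 particle that binds its RNA and helps define 5′ splice sites. Its level was 84.4, 80.6 and 87.3 CPM in enhancer KO replicates 1 to 3, against 199, 185 and 202 CPM in WT replicates 1 to 3. The lowest WT library was 2.12 times the highest enhancer KO library, and the fitted log2 fold change was -1.22 ± 0.0479 (SE). Rnpc3 (chromosome 3, 113605067 to 113630149, minus strand) encodes the 65K protein of the minor spliceosome, which removes the rare U12-type introns. Rnpc3 had 20.1, 19.2 and 21.8 CPM in enhancer KO, against 55.1, 64.5 and 55.9 CPM in WT. It was the lowest of the 9 relative to WT, with a log2 fold change of -1.52 ± 0.0720 (SE), and WT replicate 2 was the highest WT library for it.

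Cyclins L1 and L2 are close relatives that partner the kinase CDK11 and act in transcription and splicing. Ccnl1 (chromosome 3, 65946151 to 65958249, minus strand) had 23.4, 23.7 and 26.2 CPM in enhancer KO, against 44.8, 53.9 and 49.8 CPM in WT. This was the narrowest gap of the 9, with the lowest WT library 1.71 times the highest enhancer KO library, and a log2 fold change of -1.02 ± 0.0729 (SE). Ccnl2 (chromosome 4, 155812489 to 155824543, plus strand) had 30.01, 33.0 and 33.1 CPM in enhancer KO, against 77.0, 75.7 and 79.8 CPM in WT. Its log2 fold change was -1.28 ± 0.0520 (SE). Ccnl1 also varied most between WT libraries, with an SD of 9.14% of its mean against 2.70% for Ccnl2.

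Pnisr and Nktr encode proteins rich in serine and arginine, as many splicing factors are. Pnisr, named for its interaction with the splicing protein pinin (chromosome 4, 21847583 to 21876475, plus strand), had 52.0, 52.0 and 56.9 CPM in enhancer KO, against 138, 143 and 134 CPM in WT. Its log2 fold change was -1.37 ± 0.0485 (SE), although it has no annotated retained-intron transcript. Nktr (chromosome 9, 121719169 to 121756843, plus strand) encodes a large cyclophilin, a prolyl isomerase, first described in natural killer cells. Nktr had 60.9, 60.7 and 61.0 CPM in enhancer KO, against 125, 124 and 113 CPM in WT. It differed least of the 9, with a log2 fold change of -0.99 ± 0.0472 (SE), and its enhancer KO libraries lay within an SD of 0.276% of their mean.

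Leng8 (chromosome 7, 4137039 to 4148177, plus strand) encodes a protein with a domain of the SAC3 family, which also includes the export factor GANP. It had 67.7, 66.3 and 73.6 CPM in enhancer KO, against 205, 176 and 190 CPM in WT. The 2 groups stood apart by a factor of 2.39 between the nearest libraries, and the log2 fold change was -1.46 ± 0.0603 (SE). Ddx26b, now called Ints6l (chromosome X, 56454857 to 56507843, plus strand), is the relative of the Integrator subunit gene Ints6. Integrator cuts nascent RNA of small nuclear and other transcripts. Ddx26b had 22.6, 23.4 and 24.2 CPM in enhancer KO, against 52.3, 58.3 and 57.2 CPM in WT. The gene is X-linked, and WT replicate 1, the library with Xist, was the lowest WT library for it; without that library the log2 fold change was -1.30, against -1.25 with all. Wsb1 (chromosome 11, 79239372 to 79254671, minus strand) encodes a WD-repeat protein that brings substrates to a cullin ubiquitin ligase. Wsb1 had 38.1, 40.6 and 42.6 CPM in enhancer KO, against 91.6, 88.3 and 93.7 CPM in WT, with a log2 fold change of -1.17 ± 0.0509 (SE).

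**Figure D1:**
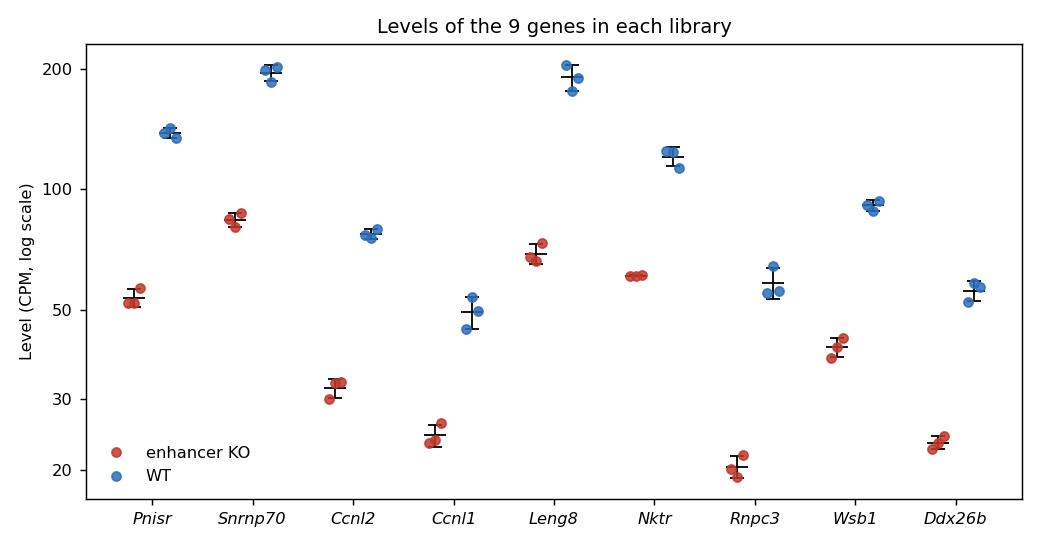
Level of each of the 9 genes in CPM on a log axis, with the 3 enhancer KO libraries (red, left) and the 3 WT libraries (blue, right) as points and the mean ± SD as bars. Every enhancer KO point lies below every WT point of the same gene.

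Taken over the 9, the summed level was 399, 400 and 427 CPM in enhancer KO and 987, 968 and 976 CPM in WT. For each gene the 3 enhancer KO values were all under the 3 WT values, which is so for 24.3% of all genes tested (the opposite order for 20.5%). All 9 are among the 17.9% of genes called lower at an edgeR adjusted p under 0.05, while 31.3% were called in either direction. Since the genes were picked for this difference, nothing is read from those counts. Their median log2 fold change was -1.25 and that of all genes tested was 0.00059. Between 1.01% and 2.43% of the genes tested were lower by more than a given gene of the 9. Within enhancer KO, replicate 3 was the highest library for all 9 genes, and it also had the largest share of reads outside exons of that group, 18.2% against 17.3% and 16.8%. Within WT, no library led in the same way: replicate 2 had the largest share outside exons, 34.1%, and was the highest for 4 genes and the lowest for 4. The order within enhancer KO was close for Nktr, at 60.9, 60.7 and 61.0 CPM. How many of all genes were highest in enhancer KO replicate 3 was not counted. That library stood apart in other genes too. The granule neuron marker Gabra6 had 141, 137 and 199 CPM in enhancer KO replicates 1 to 3, and the choroid plexus marker Ttr 1704, 1874 and 736 CPM. The part of the reads outside exons, or of such other differences, was not tested.

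**Figure D2:**
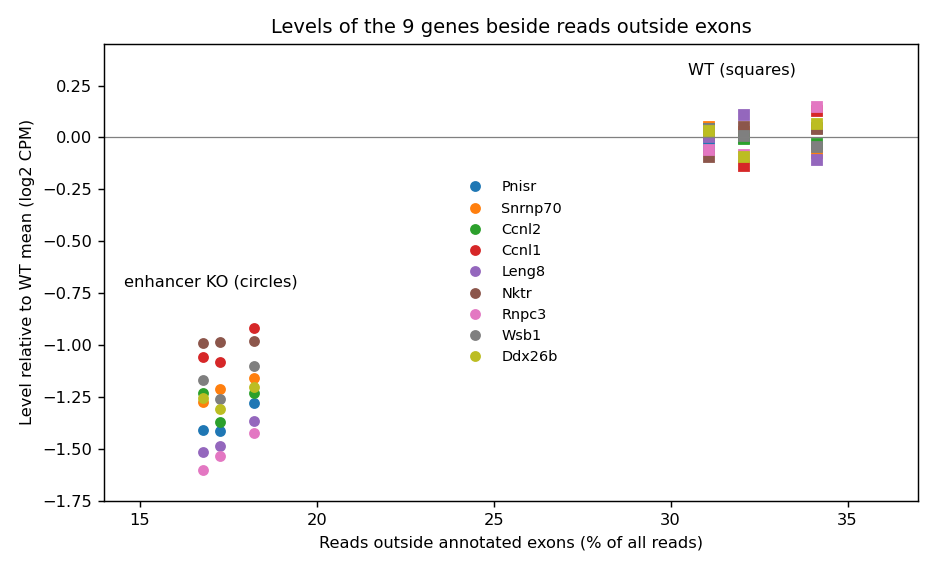
Level of each of the 9 genes in each library, as log2 CPM relative to its WT mean, against the percentage of that library's reads lying outside annotated exons, with enhancer KO libraries as circles and WT libraries as squares. The enhancer KO libraries lie at 16.8% to 18.2% and the WT libraries at 31.1% to 34.1%, with no library between.

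The choice of denominator changes the size of the difference. Reads in genes were a larger part of the library in enhancer KO, so relative to all reads, mapped or not, the median log2 fold change of all genes tested moved to 0.47 and that of the 9 genes to -0.78. The distance between the 9 and all genes was -1.25 with either denominator. A change of denominator moves all genes by nearly the same amount, so this distance could hardly differ and nothing is read from it. With all reads as the denominator, Leng8 had 44.3, 43.4 and 46.8 CPM in enhancer KO, against 108, 60.1 and 101 in WT. Nktr had 39.9, 39.8 and 38.8 CPM in enhancer KO, against 66.0, 42.5 and 60.1 in WT. WT replicate 2, with 20.4% of its reads unmapped, was the lowest WT library on this scale, and it still lay above all enhancer KO libraries for each of the 9 genes. The log2 fold changes of the 9 on this scale ran from -1.03 for Rnpc3 to -0.51 for Nktr. With TMM scaling kept, removing a trend over gene structure (total intron length, spliced length and GC) left the 9 at -1.39 to -0.93. That trend did not include annotated retained-intron transcripts. Leaving out any single library, also with TMM scaling, put the 9 at -1.57 to -0.95.

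**Figure D3:**
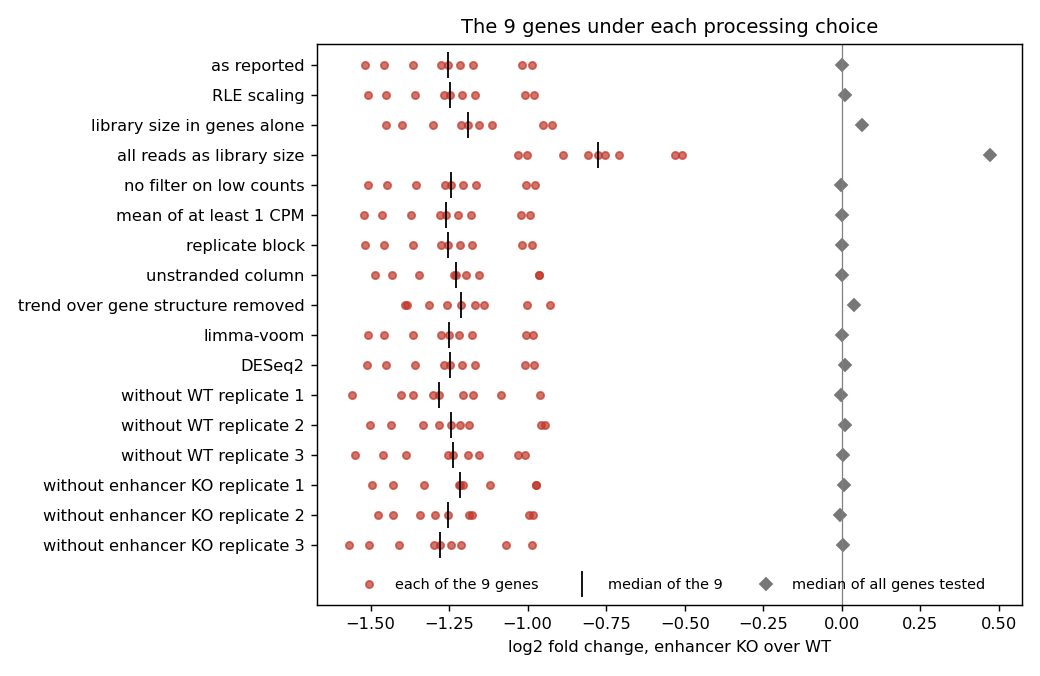
Log2 fold changes, enhancer KO over WT, of the 9 genes (red points), their median (black bar) and the median of all genes tested (grey diamond) under each processing choice. With all reads as library size both medians move up, to -0.78 and 0.47, and all 9 genes stay below 0 in each choice shown.

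Levels were also divided by the length of the main spliced transcript alone, while reads were counted over all annotated exons. The order therefore depends on that length. Before the division, Snrnp70 and Leng8 were close in WT, at 195 and 190 CPM. Per kilobase, Snrnp70 had by far the highest value of the 9. It had 48.5 ± 1.93 CPM per kb in enhancer KO and 113 ± 5.18 in WT (SD, n = 3 each). Leng8 and Wsb1 followed, at 13.6 ± 0.753 and 16.3 ± 0.915 CPM per kb in enhancer KO and 37.2 ± 2.82 and 36.8 ± 1.11 in WT. Their WT ranges overlapped, and in enhancer KO Wsb1 ranked above Leng8. Ccnl2 and Pnisr, at 31.7 and 30.4 CPM per kb in WT, overlapped too. Ccnl1 had 22.8 CPM per kb in WT. Nktr, Rnpc3 and Ddx26b, at 17.2, 15.1 and 14.8 CPM per kb in WT, overlapped with their neighbours in that order.

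Annotated neighbours overlap some of the 9. Amy1, an amylase gene named after its values were seen, lies on the same strand as Rnpc3 with overlapping exons. It had 3.96, 4.47 and 4.08 CPM in enhancer KO, against 14.1, 12.3 and 12.6 CPM in WT, and was called lower (log2 fold change -1.64 ± 0.102, SE; edgeR adjusted p = 8.72e-07). Reads that STAR finds in exons of both genes go to neither, and how the annotation used for counting divides them is not given in the sources used here. Leng9, which overlaps the end of Leng8 on the other strand, had 5.47 ± 0.645 CPM in enhancer KO and 5.29 ± 0.607 CPM in WT and was not called (edgeR adjusted p = 0.767). E530011L22Rik, antisense to Nktr, had 8.72 ± 0.648 CPM in enhancer KO and 8.62 ± 0.633 CPM in WT and was not called (edgeR adjusted p = 0.925). Wrong-strand reads made up at most 4.77% of the stranded reads of any of the 9 genes in any library, the highest share being that of Ccnl1.

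The median of the 9 was 11 introns, 17555 intron bases, 3766 spliced bases, 46.8% GC and 10 annotated transcripts, against 8, 20005, 3062, 50.6% and 5 for the 14841 protein-coding genes tested. Across those genes the share called lower differed with the number of annotated retained-intron transcripts. It was 66.3% of 166 genes with 8 or more, 33.1% of 2780 genes with 3 to 7, 15.9% of 5324 genes with 1 to 2, and 10.7% of 6571 genes with none. The share called higher ran the other way, at 1.20%, 7.91%, 14.5% and 16.6%. Median levels also differed between these classes, at 52.9, 39.2, 26.8 and 16.1 CPM, and their part in the calls was not tested. These shares are for TMM scaling and were not recomputed for other denominators. The class with 8 or more holds Snrnp70, Ccnl1 and Nktr, and the class with none holds Pnisr and Ddx26b.

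**Figure D4:**
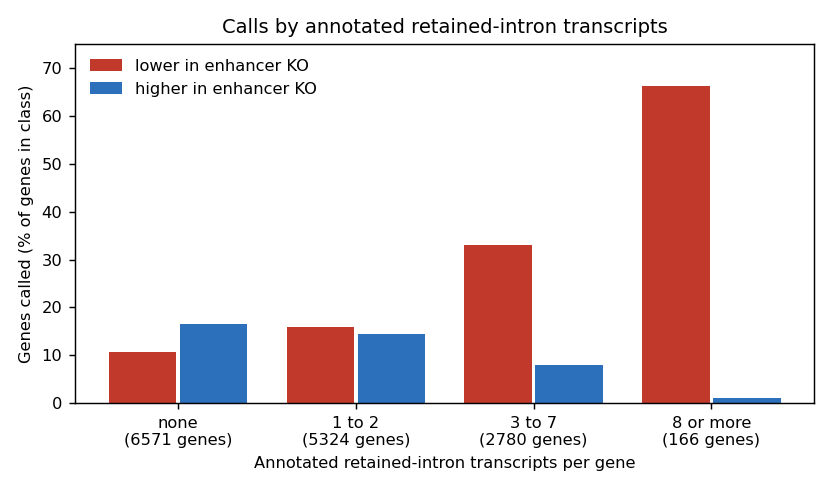
Share of protein-coding genes tested that were called lower (red) or higher (blue) in enhancer KO at an edgeR adjusted p under 0.05, by the number of retained-intron transcripts annotated for the gene. The share called lower is 10.7% in genes with none and 66.3% in genes with 8 or more.

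The promoters of the 9 do not all share any motif among those searched. RefSeq promoters on GRCm38.p6, from 250 bases before to 50 after a start, matched 8 of the 9 genes, with 10 promoters in all, and Pnisr is not among them. Those of Snrnp70, Ccnl1 and Nktr are shown because the genes differ alike while their promoters carry different motifs. Capitals mark matches on either strand to CGCATGCG (the core bound by NRF1), TGACGTCA (bound by CREB factors), TCTCGCGA (bound by BANP) and CCAAT (bound by NF-Y).
Snrnp70 promoter, chr7:45395693-45395992, minus strand: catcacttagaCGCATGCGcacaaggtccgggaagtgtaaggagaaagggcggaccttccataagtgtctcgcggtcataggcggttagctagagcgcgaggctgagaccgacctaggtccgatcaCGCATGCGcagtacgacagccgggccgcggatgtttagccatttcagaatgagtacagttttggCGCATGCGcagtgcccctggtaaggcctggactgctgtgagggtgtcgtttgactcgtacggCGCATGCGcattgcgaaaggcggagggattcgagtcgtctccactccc
Ccnl1 promoter, chr3:65958200-65958499, minus strand: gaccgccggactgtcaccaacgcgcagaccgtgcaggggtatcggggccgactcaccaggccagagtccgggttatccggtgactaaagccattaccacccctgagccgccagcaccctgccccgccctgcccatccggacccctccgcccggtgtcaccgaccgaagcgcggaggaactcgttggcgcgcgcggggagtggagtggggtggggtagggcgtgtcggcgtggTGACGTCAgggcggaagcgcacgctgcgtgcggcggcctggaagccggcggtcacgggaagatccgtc
Nktr promoter, chr9:121718931-121719230, plus strand: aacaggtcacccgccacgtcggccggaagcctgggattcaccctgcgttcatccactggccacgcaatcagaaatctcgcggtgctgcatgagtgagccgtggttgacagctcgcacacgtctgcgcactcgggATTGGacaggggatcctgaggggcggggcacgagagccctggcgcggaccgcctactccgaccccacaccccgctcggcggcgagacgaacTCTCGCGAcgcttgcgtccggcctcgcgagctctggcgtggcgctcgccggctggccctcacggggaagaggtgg
The NRF1 letters are in 2 of the 10 promoters (Snrnp70, with 4 matches, and the second of Leng8) and in 1.87% of all 32851 promoters. The CREB letters are in 2 of the 10 (Ccnl1 and Wsb1) and in 1.79% of all. The BANP letters are in 3 of the 10 (Leng8, Nktr and Rnpc3) and in 0.995% of all, and CCAAT is in 5 of the 10 and in 37.4% of all. The shorter TGACG, which lies within TGACGTCA and is not capitalised on its own, is in 5 of the 10 (Ccnl1, Ccnl2, Rnpc3, Wsb1 and the first of Leng8) and in 20.8% of all. None of these 4 motifs contains another. The 10 promoters run from 36.3% GC (second of Wsb1) to 71.7% (second of Leng8). Those printed have 58.7%, 71.0% and 68.7%, against a median of 52.7% for all promoters. The NRF1, CREB and BANP letters each contain CG. The shares of all promoters were not matched for GC, and its part in the matches was not tested. The motif matches describe letters, and no binding was measured.

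Relatives and partners of the 9 were tested over all genes. Of 96 such genes in 9 lists, all tested, 37 were called lower (38.5%, against 17.9% of all genes), 7 higher (7.29%, against 13.4%) and 52 neither. The 9 lists hold relatives and partners, but they were chosen with earlier results of these data known. Those shares are therefore no independent support. A further list of other genes with detained introns, chosen for that property with results of these data also known, brings the count to 45 lower of 104. These directions depend on the denominator: with all reads as library size, 3 of the 104 genes were lower, Clk1, Clk4 and Luc7l3, and 11 higher. All partner values are beside the difference in reads outside exons, 17.4% in enhancer KO and 32.4% in WT, whose part was not tested.

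Among U1 proteins, 4 of 7 fell and 0 rose, with a median log2 fold change of -0.14 (-0.078 with library size in genes alone and 0.33 with all reads as library size). Luc7l3, a U1-associated factor, fell to 61.3 ± 4.85 CPM in enhancer KO, against 133 ± 10.7 CPM in WT (SD, n = 3 each; edgeR adjusted p = 4.23e-06). Prpf39 fell to 26.3 ± 2.22 CPM, against 53.1 ± 0.433 CPM in WT, and Tia1, which helps U1 bind weak sites, to 38.9 ± 1.48 CPM, against 75.6 ± 2.59 CPM in WT. Luc7l also fell (log2 fold change -0.14; edgeR adjusted p = 0.0221), but lost the call when WT 3, enhancer KO 1 or enhancer KO 2 was left out (edgeR adjusted p = 0.0793, 0.131 and 0.0523). It also lost it with library size in genes alone (0.497), with the gene structure trend removed (0.105) and with DESeq2 (adjusted p = 0.0594). The core U1 protein gene Snrpa had 35.7 ± 1.75 CPM in enhancer KO and 38.4 ± 0.241 CPM in WT and did not pass (edgeR adjusted p = 0.166). The Sm proteins, the ring shared by spliceosomal particles, had 0 of 8 lower and 1 higher (3 higher with all reads as library size, and 2 when WT replicate 2 or the first enhancer KO library was left out), Snrpd2 (log2 fold change 0.23; edgeR adjusted p = 0.0125), which did not pass without enhancer KO replicate 2 (0.0546). The other core U1 protein gene of the list, Snrpc, had 23.8 ± 0.877 CPM in enhancer KO and 21.6 ± 0.435 CPM in WT and did not pass either (log2 fold change 0.14; edgeR adjusted p = 0.111). The 4 called genes encode factors associated with U1, and 0 of these 2 core genes was called, beside -1.22 for Snrnp70. Luc7l2, a relative of Luc7l in the same list, did not pass either (log2 fold change -0.10, edgeR adjusted p = 0.0780). The called Luc7l, at -0.14, lay near the core gene Snrpa, at -0.10, so the list does not divide cleanly.

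Of 13 minor spliceosome genes, partners of Rnpc3, 4 fell and 0 rose, with a median of -0.10 (0.39 with all reads as library size, -0.032 with library size in genes alone, -0.061 without WT 2 and -0.047 without enhancer KO 3). Ccdc84 had 2.99 ± 0.330 CPM in enhancer KO and 5.86 ± 0.293 CPM in WT, a log2 fold change of -0.97. The U11/U12 protein genes Snrnp48 and Pdcd7 had log2 fold changes of -0.77 and -0.39, and Rbm41 of -0.32, without passing when enhancer KO replicate 1 was left out (edgeR adjusted p = 0.0511). Of 10 transcriptional cyclin and kinase genes, 4 fell and 0 rose, with a median of -0.13 (0.35 with all reads as library size, -0.075 with the trend removed, and -0.063 with 2 lower with library size in genes alone). The log2 fold changes were -0.58 for Ccnt2, -0.27 for Cdk12, -0.22 for Cdk13 and -0.18 for Ccnk. Ccnk lost the call in 4 of the 6 fits that left out 1 library (all but WT 1 and enhancer KO 3), with edgeR adjusted p between 0.0619 and 0.148 there. Ccnk also lost it with library size in genes alone (0.332), with the trend removed (0.0760) and with DESeq2 (adjusted p = 0.0754), and Cdk13 with library size in genes alone (edgeR adjusted p = 0.127). Cdk11b, the kinase partner of cyclins L1 and L2, had 32.1 ± 1.02 CPM in enhancer KO and 35.1 ± 1.30 CPM in WT and did not pass (edgeR adjusted p = 0.103), beside -1.02 for Ccnl1 and -1.28 for Ccnl2.

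Integrator subunits, relatives and partners of Ddx26b, were lower in 11 of 14 cases and higher in 0, with a median of -0.25 (0.22 with all reads as library size). With library size in genes alone 5 were lower, and 0 with all reads. Asun, Ints10 and Ints2 fell, with log2 fold changes of -0.56 for Asun, -0.56 for Ints10 and -0.52 for Ints2. Ints6, the relative of Ddx26b, fell to 32.7 ± 1.504 CPM in enhancer KO, against 41.4 ± 0.971 CPM in WT (SD, n = 3 each; log2 fold change -0.34 ± 0.0541, SE; edgeR adjusted p = 0.000616). With the trend over gene structure removed, the log2 fold change of Ints6 was -0.16 (edgeR adjusted p = 0.0402). Spliceosomal cyclophilins, the family of Nktr, had 3 of 10 lower and 0 higher, with a median of -0.14 (0.33 with all reads as library size, -0.083 with the trend removed, -0.090 without enhancer KO 1, and -0.075 with 1 lower with library size in genes alone). These 3 had log2 fold changes of -0.45 for Cwc27, -0.25 for Ppil4 and -0.19 for Ppil2. Ppil4 lost the call when WT 2, enhancer KO 1 or enhancer KO 2 was left out, with edgeR adjusted p between 0.0731 and 0.0841. With library size in genes alone, Ppil4 and Ppil2 lost it (edgeR adjusted p = 0.123 and 0.246). Ppig, the cyclophilin most like Nktr in build, had 65.5 ± 3.26 CPM in enhancer KO and 70.9 ± 3.50 CPM in WT and did not pass (edgeR adjusted p = 0.124).

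Pinin and the exon junction proteins, partners of Pnisr and of each other, had 5 of 11 lower and 2 higher, with a median of -0.19 (0.27 with all reads as library size, and -0.11 without enhancer KO 1). Srrm2, a large scaffold of the spliceosome, fell to 428 ± 12.7 CPM in enhancer KO, against 690 ± 32.6 CPM in WT (SD, n = 3 each). Log2 fold changes were -0.65 for Pnn, -0.45 for Srrm1 and -0.36 for Acin1. The 2 higher genes were Sap18 and Rbm8a; 0 were called without enhancer KO replicate 2, and 1 without WT replicate 1, WT replicate 3 or the third enhancer KO library. Of 16 mRNA export genes, 6 fell and 0 rose, with a median of -0.13 (0.35 with all reads as library size, -0.069 with library size in genes alone and -0.063 with the trend removed). Leaving out 1 library put this median between -0.204 (enhancer KO 3) and -0.060 (enhancer KO 1), with -0.084 without WT 2. The log2 fold changes were -0.92 for Thoc1, -0.88 for Nxf1, -0.50 for Thoc2 and -0.33 for Ddx39b. Mcm3ap, which encodes GANP, the relative of Leng8, had -0.30 (edgeR adjusted p = 0.000872).

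Of 7 genes of the Wsb1 ligase and its substrates, 4 rose and 0 fell, beside 13.4% of all genes called higher, with a median of 0.17 (0.65 with all reads as library size). Wsb2, its closest relative, rose to 170 ± 5.21 CPM in enhancer KO, against 134 ± 7.21 CPM in WT (SD, n = 3 each; log2 fold change 0.34 ± 0.0472, SE; edgeR adjusted p = 0.000242). The ring finger gene Rnf7 was at 0.26 on the log2 fold change scale, and the substrate genes Dio2, a thyroid hormone deiodinase, and Hipk2, a kinase, had 0.24 and 0.17. The cullin gene Cul5 had 88.1 ± 1.46 CPM in enhancer KO and 88.0 ± 7.18 CPM in WT and did not pass (edgeR adjusted p = 0.975). The elongin adaptor genes Tceb1 and Tceb2 were not called (log2 fold changes of 0.10 and 0.17; edgeR adjusted p = 0.179 and 0.0602).

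**Figure D5:**
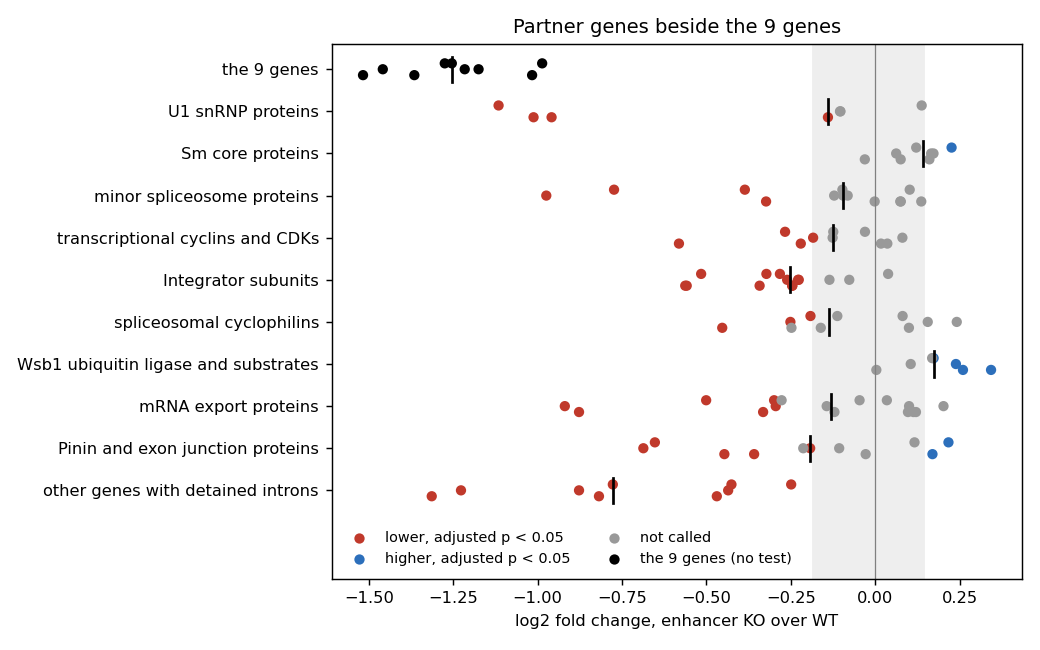
Log2 fold changes, enhancer KO over WT, of the 9 genes (black) and of the genes in 10 partner lists, coloured by whether they were called lower (red), higher (blue) or neither (grey) at an edgeR adjusted p under 0.05. Bars are list medians, the grey band holds the middle 50% of all genes tested, and the 9 genes lie between -1.52 and -0.99.

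Among the lists, that of other genes known for detained introns had the median log2 fold change nearest to that of the 9. All 9 genes of that list were called lower, with a median log2 fold change of -0.78 (-0.30 and 2 lower with all reads as library size), against 17.9% of all genes called lower. Clk1, a kinase of splicing factors, fell to 56.8 ± 3.51 CPM in enhancer KO, against 141 ± 10.04 CPM in WT (SD, n = 3 each), and Clk4 to 22.7 ± 2.03 CPM, against 53.3 ± 3.58 CPM in WT. Ogt, the enzyme that adds N-acetylglucosamine to proteins, had a log2 fold change of -0.78, the export receptor gene Nxf1 of -0.88 and the splicing factor gene Srsf5 of -0.82. The log2 fold changes of Clk1 and Clk4, -1.31 and -1.23, lie within the range of the 9, and the other 7 of the list lie above it. Of these, Mat2a, Srsf7, Hnrnph1 and Tra2a had -0.47, -0.44, -0.43 and -0.25. Luc7l3 and Prpf39 of the U1 list, at -1.12 and -1.01, lie within the range of the 9 too. The list of other genes with detained introns was chosen with results of these data known and is no independent support.

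Many genes follow the 9 over the 6 libraries, since the groups stand apart. Of 10301 other genes with a mean of at least 10 CPM, 1643 had a Pearson correlation over 0.9 with the mean standardised log2 CPM of the 9. The 5 with the highest, each 0.999 over 6 libraries that fall into 2 groups, were Ttc37, Mettl17, Dennd6b, Dock9 and Cacna1e. Their log2 fold changes were -0.40, -0.80, -0.90, -0.52 and -0.64, all smaller in size than those of the 9. Dennd6b had 26.3 ± 0.657 CPM in enhancer KO and 49.2 ± 0.260 CPM in WT (SD, n = 3 each).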

How the data were processed

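Trimmomatic, STAR and mm10 are named in the submitters' processing notes, without versions; the authors' gene annotation is not given in the sources here. The authors deposited STAR's raw read count for each gene, in whole numbers. Column 4 was used, since column 3 held 1.62% to 1.88% of the stranded reads. The 4 rows that name no gene entered neither library sizes nor tests, and reads outside exons are 1 of them.

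Genes were filtered with filterByExpr with scaling by TMM. The groups were tested with edgeR 4.0.16 (R 4.3.3; quasi-likelihood test, robust, two-sided), with Benjamini-Hochberg adjustment over all 15846 genes and a threshold of 0.05. The SE came from the fold change and F statistic. Structure came from GENCODE M21, which is on the same build; 23334 symbols matched by symbol and 668 by an older one, and 409 were unmatched. The test and the trend removal were checked on simulated data. Alternatives were other scalings and filters, a replicate block, DESeq2 1.42.0, limma-voom (limma 3.58.1), the unstranded column, removal of a gene structure trend (mgcv 1.9.3) and leaving out each library.

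The 9 genes and the lists were chosen with earlier results of these data known. Named were the 9, their nearest relative or partner, up to 4 called genes with the smallest p per list, and the 5 genes with the most similar profile. A few others were named after their values were seen. Those are Amy1, Leng9, E530011L22Rik, Cul5, Srsf5, Mat2a, Srsf7, Hnrnph1, Tra2a, Sap18, Rbm8a, Snrpc, Luc7l2, Tceb1, Tceb2, Gabra6 and Ttr.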

Additional observations from a re-analysis of the deposited data

How the results depend on the processing

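All 9 genes stayed lower in enhancer KO under each alternative run. Their median log2 fold change of -1.25 became -1.19 with library size in genes alone, -0.78 with all reads as library size and -1.21 with the gene structure trend removed, and lay between -1.28 and -1.22 when any 1 library was left out. Genes called lower numbered 2844, against 1689 with library size in genes alone and 183 with all reads as library size, and genes called higher 2120, against 3350 with all reads. Lower genes were 57.3% of calls, 43.8% with library size in genes alone, 5.18% with all reads and 43.5% with the trend removed. Leaving out 1 library gave 2181 to 2710 lower and 1420 to 2214 higher genes. Partner genes called lower numbered 45, against 3 with all reads, and 7 partner genes were higher, against 11 with all reads, 12 with the trend removed and 4 without enhancer KO replicate 2; leaving out 1 library gave 39 to 46 lower and 4 to 9 higher. With all reads as library size, 17 of 39 named partner genes changed sign without passing, to log2 fold changes of 0.12 for Acin1, 0.29 for Ccnk, 0.35 for Cdk11b, 0.21 for Cdk12, 0.25 for Cdk13, 0.025 for Cwc27, 0.13 for Ddx39b, 0.13 for Ints6, 0.33 for Luc7l, 0.17 for Mcm3ap, 0.083 for Pdcd7, 0.37 for Ppig, 0.28 for Ppil2, 0.23 for Ppil4, 0.16 for Rbm41, 0.37 for Snrpa and 0.023 for Srrm1. Ppig also changed sign with the trend removed, at 0.0058. The denominator itself, which counts reads outside exons and unmapped reads, moves all genes together there. The deviations of same-numbered libraries from their group means had correlations of 0.053, -0.039 and -0.080. Differently numbered libraries were not compared in this way, so whether the numbers mark a pairing is not settled. With the replicate block, 2635 genes were lower and 1961 higher, with the median of the 9 at -1.25.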
